A study of Mus musculus with 4 samples.

Results

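The retina was examined for its axon guidance ligands and receptors, the secreted and membrane proteins that steer growing axons and later act in synapses, glia and blood vessels. Members were taken by symbol alone. They are the semaphorins, plexins, neuropilins, ephrins, Eph receptors, Slits, Robos, netrins, the Unc5 receptors and Dcc. The rule found 63 genes among the 14572 rows of the deposited table, 32 ligands and 31 receptors. All mice were C57BL/6, and all retinas came from eyes kept under acute ocular hypertension for 1 h and collected on day 5, an injury that models pressure damage in glaucoma. The genotypes were wild type (WT, libraries P1041 and P1033) and a PLSCR1 transgenic line (TG, libraries TP-1036 and TP-1040). PLSCR1 is a phospholipid scramblase. Which promoter drives the transgene, how many founders or animals were used, and the meaning of the label's age (E14.5, at odds with an injury to the eye) are not known here. The columns were tied to the transgenic group only by being marked as cases, so these libraries are called transgenic-labelled. Retinas without injury were not analysed here.

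Semaphorins signal through plexins. The secreted class 3 semaphorins mostly need a neuropilin as co-receptor, and Sema3e can bind Plxnd1 directly. Ephrins are bound to the membrane and signal in both directions with Eph receptors, ephrin-A mainly with EphA and ephrin-B mainly with EphB. In the developing retina, graded EphA and EphB systems set the map that ganglion cell axons form in the brain. Slits repel axons through Robo receptors. Netrin-1 guides ganglion cell axons out of the eye through Dcc, and Unc5 receptors turn the netrin response into repulsion. Several of these genes, among them Robo4, Unc5b, Plxnd1, Nrp1 and Ephb4, are also well known from endothelial cells.

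Summed estimated counts were 28866589 for P1041, 32456452 for P1033, 38508987 for TP-1036 and, the deepest, 41215649 for TP-1040. All 6 rod markers were abundant in each library, with a summed level of 53027 to 67240 CPM (reads scaled to library size). Plscr1 itself had 229 and 276 reads in wild type against 371 and 329 in transgenic-labelled retinas. Its log2 difference was 0.14 ± 0.17 (SE), less than the difference of 0.29 between the transgenic-labelled libraries, and whether the transgene's reads would be counted under this mouse symbol is not known. TP-1036 stood apart from the others in at least 2 ways, beside the highest summed Müller glia and microglia markers, given below. It held 234 CPM of the lens crystallins Cryaa, Crybb2 and Crybb3, against 0.809 to 5.69 CPM in the other libraries, and genes with long transcripts were lower in it. Values without it are given beside most of the differences that it moves. With 2 libraries against 2, an exact two-sided permutation test cannot give a p below 0.333, so tests were made with edgeR's quasi-likelihood fit across all 14572 rows.

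Most members were expressed at low to middle levels. Per transcript length, the mean over the 4 libraries ran from 0.202 to 44.5 FPKM (reads scaled to transcript length and library size) with a median of 4.12, against a median of 7.17 over all rows. Sema3f, a secreted semaphorin that signals through Nrp2, was the highest of the 63, at 44.9 and 45.0 FPKM in wild type against 43.8 and 44.4 in transgenic-labelled retinas. Its values spanned a narrow range in all 4 libraries. Then came the receptor Plxnb2 (18.2 FPKM), the ligands Slit2 (17.2) and Sema7a (17.2), the class 6 semaphorin receptor Plxna2 (16.9) and the Sema4d receptor Plxnb1 (16.8), all as means per length. These 5 lay so close that their order differed between libraries. At the low end were 7 members with a mean under 1 FPKM, namely Epha6, Robo4, Sema3c, Sema3d, Sema3g, Slit3 and Ntn1. Ntn1 had only 31, 42, 47 and 48 reads, the fewest of all members.

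**Figure D1:**
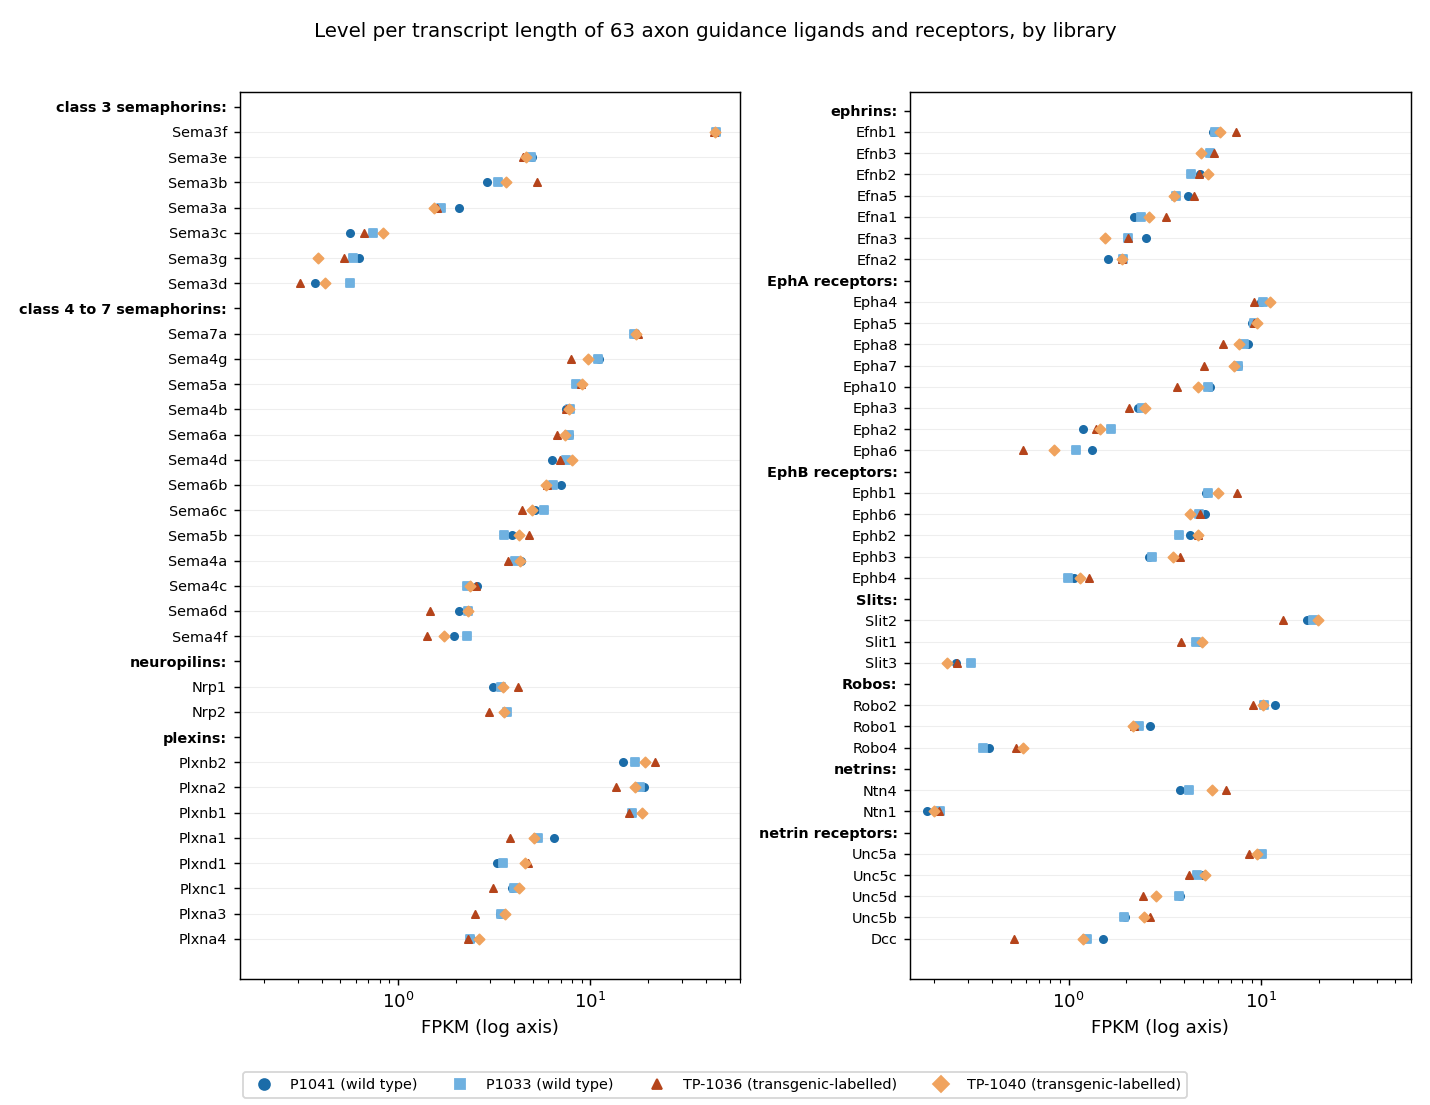
FPKM (log axis) of each of the 63 members in each of the 4 libraries, grouped by role and sorted by mean within a group. For most members the 4 points lie close together, Sema3f is the highest near 44.5, and TP-1036 is the leftmost point for Dcc, Slit2 and 6 of 8 plexins.

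No member passed the test between the genotype groups. At a Benjamini-Hochberg adjusted p of 0.05, edgeR called 0 of the 63 members and 1 of all rows (0.00686%), the lysozyme gene Lyz2. The smallest adjusted p among members was 0.478, for Ntn4. DESeq2 and limma-voom also called 0 members (DESeq2 called 0.597% of all rows). At an unadjusted p of 0.05, edgeR gave 9 members (14.3%), 7 with higher and 2 with lower values, where the background over all rows was 9.91% (5.26% higher and 4.65% lower). The 7 were Ntn4, Sema3b, Plxnd1, Ephb3, Unc5b, Ephb1 and Plxnb2, and the 2 were Unc5d and Epha6. Their signs held in every alternative that tested them (12 for Epha6, 14 for the others). In all 9 the groups did not overlap, so leaving out a library could hardly turn a sign. The other alternatives reuse the same libraries, so the kept signs are no separate support. The number at this threshold did not hold. Without P1041 it was 0 higher and 1 lower (background 1.8% and 3.53%), and without P1033 it was 2 higher and 4 lower (3.27% and 2.49%). Without TP-1036 it was 5 higher and 1 lower (5.06% and 3.95%), and without TP-1040 it was 10 higher and 18 lower (20.1% and 22%). DESeq2 gave 5 higher and 4 lower (4.17% and 5.08%). Scaling by column totals moved the split over all rows from 766 higher and 678 lower to 556 and 840, and that of the members from 7 and 2 to 5 and 5.

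As a family the members were close to balance. The median log2 difference was -0.04 over the 63 and 0.0013 over all rows, with 28 members higher and 35 lower. Set against the wild-type mean, TP-1036 alone had a median of -0.10 and TP-1040 alone one of 0.04. The groups did not overlap in 38 members, 17 higher and 21 lower, a share of 60.3% beside 48.4% of all rows (24.1% higher and 24.3% lower). In 22 members (34.9%) the difference between the genotype groups was larger than both differences within a group, as it was in 29.3% of all rows. The differences were small, and 40 of the 63 (63.5%) lay within 0.25 of no change on the log2 scale, much as 65.6% of all rows did.

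**Figure D2:**
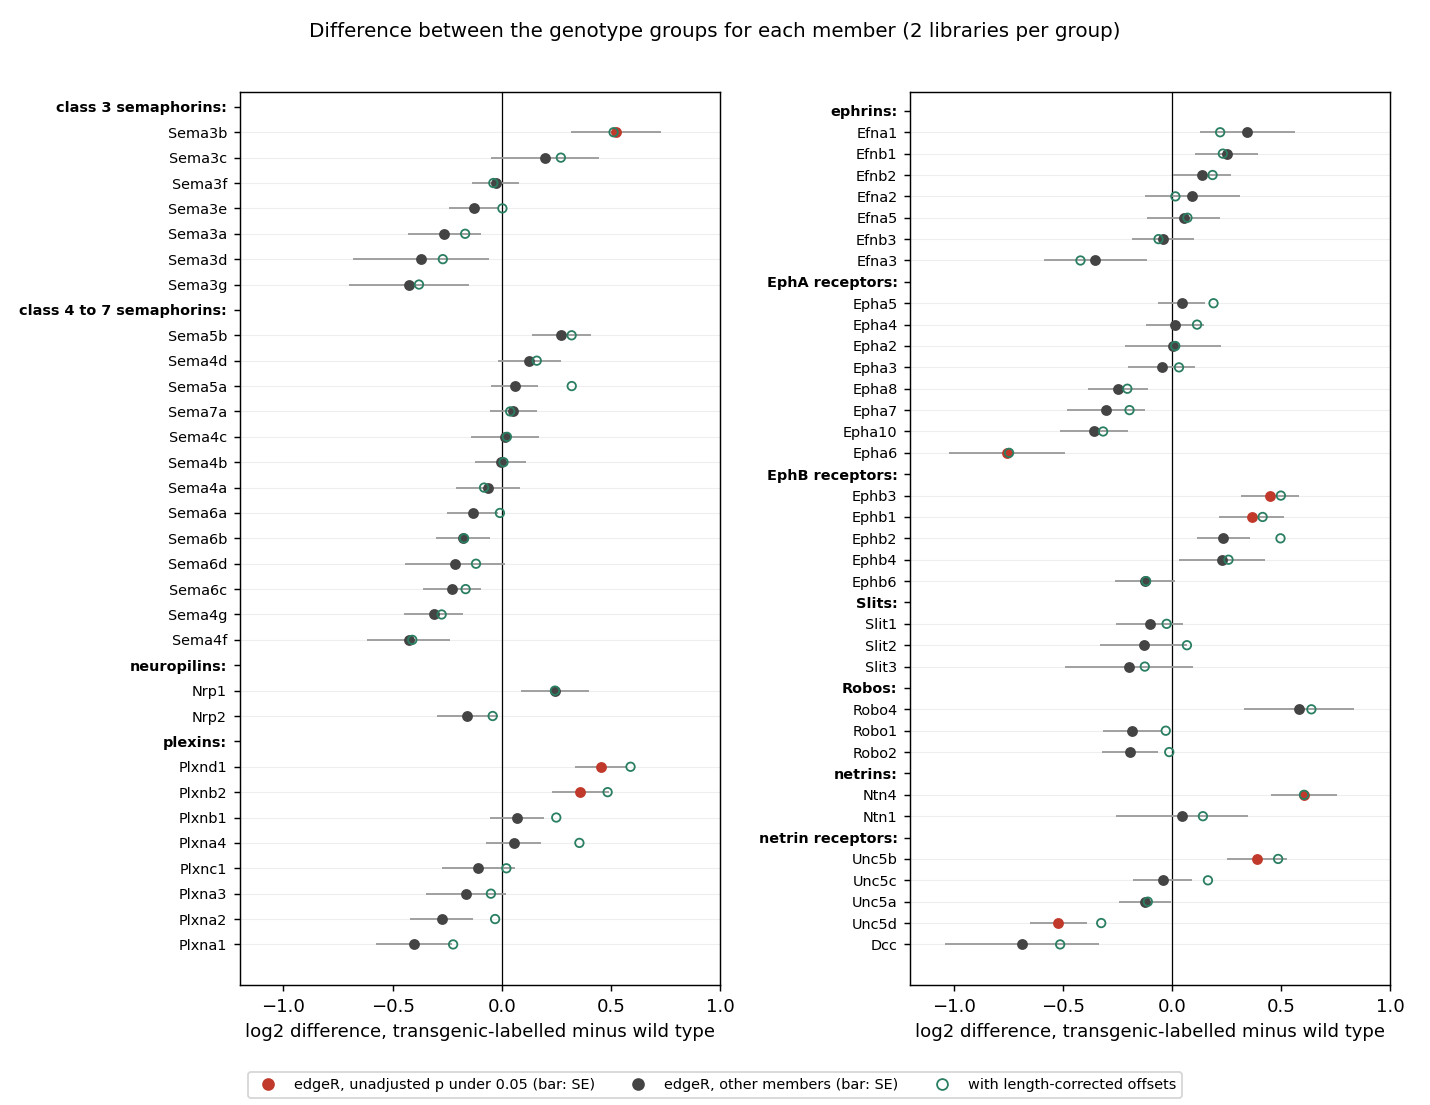
Log2 difference between transgenic-labelled and wild-type libraries (filled points, bars are SE, 2 libraries per group) for the 63 members by role, with the same difference after a correction for transcript length (open circles). The 9 members at an unadjusted p under 0.05 are red, and 4 of 5 EphB receptors lie right of 0 while the highest EphA receptor, Epha5, lies at 0.04 before that correction.

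The class 3 semaphorins are secreted cues, mostly repellent. Of 7 members, 5 had lower and 2 higher values, with a median log2 difference of -0.13. Sema3b, which acts through neuropilins, had the largest difference of the class. Its values were 9.92 and 11.3 CPM in wild type against 18.1 (TP-1036) and 12.5 (TP-1040) CPM in transgenic-labelled retinas. TP-1036 stood well above the other 3, and TP-1040 lay just above P1033. The log2 difference was 0.52 ± 0.21 (SE, edgeR adjusted p = 0.495), and it was 0.24 without TP-1036. Sema3f, the highest member, had 153 and 153 CPM against 149 and 151, a log2 difference of -0.03 ± 0.11. Sema3e, the ligand of Plxnd1, had 34.2 and 33.7 against 30.4 and 31.9 CPM (log2 difference -0.13 ± 0.11). Sema3a, which acts through Nrp1 and plexin A, had 12.3 and 9.89 against 9.38 and 9.10 CPM. Its groups did not overlap, but P1041 was farther from P1033 than P1033 was from either transgenic-labelled library. Sema3c, Sema3d and Sema3g had means of 0.413 to 0.698 FPKM and log2 differences of 0.20, -0.37 and -0.42, with standard errors of 0.25 to 0.31. Without TP-1036 these were 0.35, -0.17 and -0.66.

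The class 4 to 7 semaphorins are membrane proteins, of which Sema7a is held by a lipid anchor. None of these 13 members reached an unadjusted p of 0.05. There were 5 with higher and 8 with lower values, with a median of -0.06 and a range of -0.43 to 0.27 on the log2 scale. Sema7a, the highest of them per length and a ligand of Plxnc1 and of integrins, had 55.8 and 55.2 CPM in wild type against 58.5 and 56.7 in transgenic-labelled retinas, a log2 difference of 0.05 ± 0.11. Sema4f, a class 4 semaphorin found at synapses, had the largest difference. Its values were 7.98 and 9.26 against 5.75 and 7.08 CPM, with no overlap (log2 difference -0.43 ± 0.19, edgeR adjusted p = 0.495). Sema4g had 50.18 and 49.96 against 36.2 and 44.4 CPM (-0.31 ± 0.14). Without TP-1036 the differences were -0.28 for Sema4f and -0.17 for Sema4g. The class 5 pair that confines inner retinal neurites through Plxna1 and Plxna3 had slightly higher values, at 0.27 ± 0.14 for Sema5b and 0.06 ± 0.11 for Sema5a. The class 6 genes all lay below 0, from -0.13 for Sema6a, a partner of Plxna2 and Plxna4 in retinal lamination, to -0.23 for Sema6c. Without TP-1036 these were -0.06 and -0.14, and Sema6d turned from -0.21 to 0.08.

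The neuropilins went in opposite directions. Nrp1, a co-receptor of Sema3a and of VEGF, had 11.3 and 12.4 CPM in wild type against 15.3 and 12.8 in transgenic-labelled retinas (log2 difference 0.24 ± 0.16). Nrp2, a co-receptor of Sema3f, had 24.0 and 24.8 against 19.9 and 23.9 CPM (-0.16 ± 0.14). Neither difference was larger than that between the transgenic-labelled libraries, and without TP-1036 they were 0.11 and -0.03.

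Among the 8 plexins, 4 had higher and 4 had lower values. The median was -0.22 for plexin A genes, from -0.45 for TP-1036 and -0.02 for TP-1040 against the wild-type mean, so it rested on TP-1036. It was 0.21 for the B, C and D genes, from 0.20 and 0.23. Plxnd1, the receptor of Sema3e, had 22.6 and 24.1 CPM in wild type against 32.5 and 31.6 in transgenic-labelled retinas. Both libraries of each group lay close together and the groups were well apart, at 32.1 ± 0.633 against 23.4 ± 1.06 CPM (SD, n = 2). The log2 difference was 0.46 ± 0.12 (edgeR adjusted p = 0.482), and it stayed between 0.41 and 0.50 when any library was left out. Plxnb2, a widely expressed receptor of class 4 semaphorins, had 95.8 and 111 against 141 and 125 CPM, a log2 difference of 0.36 ± 0.13 (edgeR adjusted p = 0.495). Plxnb1 had 140 and 143 against 137 and 160 CPM, and these overlapped. Of the plexin A genes, 3 of 4 had lower values. Plxna1 had 58.1 and 48.3 against 34.4 and 46.0 CPM (-0.40 ± 0.17), and Plxna2 had 209 and 200 against 149 and 189 CPM (-0.27 ± 0.14). In both genes TP-1036 was the lowest library, and without it the differences were -0.21 and -0.11. Plxnc1, the receptor of Sema7a, had overlapping values with a log2 difference of -0.11 ± 0.17, which turned to 0.10 without TP-1036.

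Most ephrins had similar values in both groups. Of 7 members, 5 had higher and 2 lower values, with a median log2 difference of 0.09. The groups overlapped in 5 of the 7, and in 7519 of all 14572 rows. Efnb1, the highest per length and a ligand of EphB receptors, had 18.3 and 18.8 CPM in wild type against 24.3 and 19.9 in transgenic-labelled retinas (log2 difference 0.25 ± 0.15). TP-1036 was the highest library for it and for 4 of the 7 ephrins, and without TP-1036 the difference was 0.10. Efna3, with the largest difference, had 6.003 and 4.795 against 4.797 and 3.66 CPM. P1033 and TP-1036 were level, and the log2 difference was -0.35 ± 0.24, or -0.55 with TP-1036 left out.

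The Eph receptors are described by class. Of the 5 EphB receptors, 4 had higher values and in these 4 the groups did not overlap, as was so upward in 24.1% of all rows. Of the 8 EphA receptors, 5 had lower values, and in 4 of these the groups did not overlap, as was so downward in 24.3% of all rows. Of the other 3, Epha2 and Epha4 lay within 0.02 of 0 and turned sign with column totals, and Epha5 lay at 0.04. The median log2 difference was 0.23 for EphB, from 0.30 for TP-1036 and 0.19 for TP-1040 against the wild-type mean. For EphA it was -0.15, from -0.29 for TP-1036 and -0.0062 for TP-1040, so the EphA value rested on TP-1036. The difference between the classes was not tested, since genes are not replicates.

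Ephb3, a receptor of B ephrins that guides ganglion cell axons, had 12.5 and 12.8 CPM in wild type against 17.9 and 16.6 in transgenic-labelled retinas. The gap between the groups was wider than the difference within either. The log2 difference was 0.45 ± 0.13 (edgeR adjusted p = 0.495), or 0.40 with TP-1036 left out and 0.51 with TP-1040 left out. Ephb1, which steers ganglion cell axons that stay on the same side at the optic chiasm, had 24.2 and 24.7 against 35.1 (TP-1036) and 27.8 (TP-1040) CPM. Here TP-1036 was much the highest, and the log2 difference of 0.36 ± 0.15 (edgeR adjusted p = 0.495) was 0.19 without it. Ephb2 had 46.4 and 40.8 against 51.1 and 51.4 CPM (0.23 ± 0.12). Ephb4, better known from veins, had 4.65 and 4.32 against 5.54 and 4.95 CPM (0.23 ± 0.20, or 0.15 with TP-1036 left out). Ephb6, which lacks kinase activity, was the exception, with overlapping values and a log2 difference of -0.12 ± 0.14 (-0.21 without TP-1036). The summed level of the 5 was 107 and 100.6 CPM in wild type against 128 and 117 CPM in transgenic-labelled retinas.

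Epha6 had the largest difference of all 63 members. Its values were 5.17 and 4.32 CPM in wild type against 2.28 (TP-1036) and 3.32 (TP-1040) in transgenic-labelled retinas, from 149, 144, 86 and 136 reads. Both transgenic-labelled libraries lay below both wild-type ones, with means of 2.80 ± 0.735 against 4.74 ± 0.604 CPM (SD, n = 2). The log2 difference was -0.76 ± 0.26 (edgeR adjusted p = 0.495), or -0.51 with TP-1036 left out and -1.05 with TP-1040 left out. Epha4, the highest EphA gene per length and a receptor that binds ephrins of both classes, had 63.2 and 64.6 against 58.0 and 70.8 CPM. Its wild-type values lay inside the range of the transgenic-labelled ones, and the log2 difference was 0.01 ± 0.13, or 0.15 with TP-1036 left out. Epha5 was as flat, at 0.04 ± 0.11. Epha10, Epha7 and Epha8 lay at -0.36, -0.30 and -0.25 and were lowest in TP-1036, as were 6 of the 8 EphA genes. Without TP-1036 the same 3 lay at -0.19, -0.07 and -0.11. The summed EphA level was 269 and 270 CPM in wild type, only 226 for TP-1036 and 271 for TP-1040, which was level with wild type.

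The groups overlapped in all 3 Slit ligands, as they did in 7519 of all 14572 rows. Slit2, the highest per length, had 173 and 185 CPM in wild type, 130 for TP-1036 and 197 for TP-1040. The transgenic-labelled libraries held the lowest and the highest value, and the log2 difference of -0.13 ± 0.20 turned to 0.15 without TP-1036. That of Slit1 turned from -0.10 to 0.07. Slit3 had only 39, 54, 52 and 50 reads, or 1.35 and 1.62 against 1.38 and 1.22 CPM. Its log2 difference of -0.20 ± 0.29 was smaller than its standard error. Robo2, the main Slit receptor of ganglion cells, had 102 and 89.3 against 78.4 and 88.4 CPM. TP-1040 came close to P1033, and the log2 difference was -0.19 ± 0.13, or -0.11 with TP-1036 left out. Robo1 lay at -0.18 ± 0.14. Robo4, the endothelial member, went the other way. It had 1.91 and 1.77 against 2.62 and 2.88 CPM, from 55, 59, 99 and 118 reads, with no overlap and a log2 difference of 0.58 ± 0.25 (edgeR adjusted p = 0.495).

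Netrin genes held the member with the smallest p. Ntn4, a netrin related to laminins that sits in basement membranes, had 13.8 and 15.4 CPM in wild type against 24.1 (TP-1036) and 20.3 (TP-1040) in transgenic-labelled retinas. Both transgenic-labelled values lay above both wild-type ones, with means of 22.2 ± 2.72 against 14.6 ± 1.17 CPM (SD, n = 2), a 1.52-fold difference. The log2 difference was 0.60 ± 0.15, with the adjusted p of 0.478 in edgeR, or 0.48 with TP-1036 left out and 0.73 with TP-1040 left out. Ntn1, the classical netrin, had 1.08 and 1.26 against 1.25 and 1.17 CPM, which overlapped.

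The netrin receptors went in both directions. Unc5d, an Unc5 receptor that also binds FLRT proteins, had 35.01 and 34.77 CPM in wild type against 22.3 and 26.2 in transgenic-labelled retinas. The wild-type libraries were nearly equal and both others lay below them. The log2 difference was -0.52 ± 0.13 (edgeR adjusted p = 0.481), or -0.41 with TP-1036 left out and -0.64 with TP-1040 left out. Unc5b, the Unc5 receptor of blood vessels, had 11.5 and 11.4 against 15.6 and 14.4 CPM, again apart (log2 difference 0.39 ± 0.14, edgeR adjusted p = 0.495). Dcc, the attractive netrin receptor, had 15.5 and 12.9 CPM in wild type, 5.38 for TP-1036 and 12.2 for TP-1040. Only TP-1036 was far below the rest. The log2 difference of -0.69 ± 0.35 (edgeR adjusted p = 0.506) was -0.21 without that library and -1.39 without TP-1040. Unc5a, the highest of these receptors per length, had 38.7 and 40.4 against 34.53 and 38.01 CPM (-0.13 ± 0.12), and Unc5c overlapped (-0.04 ± 0.14). Without TP-1036 these were -0.05 and 0.09.

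**Figure D3:**
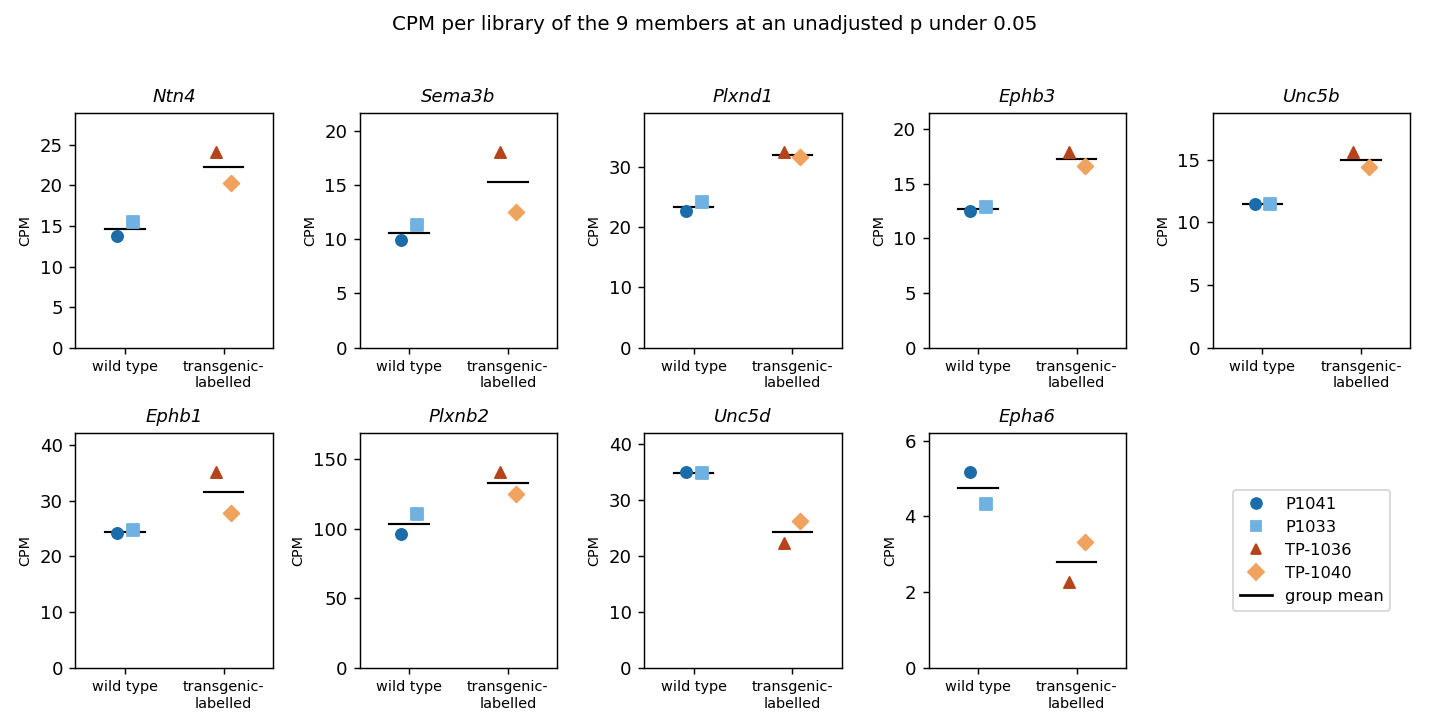
CPM in each library (points) and group means (lines) for the 9 members at an unadjusted p under 0.05, with each vertical axis starting at 0. In each of the 9 the groups do not overlap (as in 48.4% of all rows), which largely follows from picking them by that p. TP-1036 lies farther from wild type than TP-1040 in each. Among the 7 with higher values the ratio between the transgenic-labelled points is largest for Sema3b and Ephb1.

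Markers of the cells that express these genes also differed between the libraries. In bulk retina, fewer cells of a type and less RNA per cell cannot be told apart. All 10 ganglion cell markers had lower values, with a median of -0.56, 7 of them at an unadjusted p of 0.05 and 0 at the adjusted threshold. Their summed level was 813 CPM for P1041 and 539 CPM for P1033 in wild type against 504 and 440 in transgenic-labelled retinas, so the wild-type libraries themselves differed widely. Rbpms, an RNA-binding protein of ganglion cells, had a log2 difference of -0.61 ± 0.18, with 26.3 CPM for P1041 and 18.9 for P1033. Unc5d had nearly equal values in those wild-type libraries. Among other members with lower values, Epha6 had 5.17 CPM for P1041 and 4.32 for P1033, and Robo2 had 102 and 89.3. Any link of these members to ganglion cell content was not tested. Of 7 amacrine cell markers, 6 had lower values (median -0.30).

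Of 8 endothelial markers, 7 had higher values (median 0.21) and 1 was at an unadjusted p of 0.05 in edgeR. Their summed level was 432 and 472 CPM in wild type against 511 and 537 in transgenic-labelled retinas. The 8 endothelial markers ran from -0.26 to 0.44 (log2), with Cldn5, a tight junction gene of endothelium, at 0.44 and Cdh5 at 0.24. The 5 members named above as known from endothelial cells lay at 0.58 for Robo4, 0.46 for Plxnd1, 0.39 for Unc5b, 0.24 for Nrp1 and 0.23 for Ephb4. They were picked by hand, with no list fixed beforehand, so their common sign is no result. Outside this pick, Nrp2 lay at -0.16 and Sema3g at -0.42. All 5 pericyte markers had higher values (median 0.30), 0 of them at an unadjusted p of 0.05 in edgeR. Müller glia markers were higher in 8 of 8 cases (median 0.39, summed level 5051 and 5265 against 8125 and 6509 CPM). In edgeR, 5 of these 8 were at an unadjusted p of 0.05, where the background was 9.91% of all rows. Microglia and macrophage markers were higher in 9 of 9 cases (median 1.05, summed level 129 and 149 against 375 and 253 CPM). Of these 9, 8 were at an unadjusted p of 0.05 in edgeR and 1, Lyz2, was past the adjusted threshold. No marker of these lists was at 0 in any library, while 6 of 9 lens markers had no row in the table and Crybb2 was at 0 in P1033. Several other lists also had mostly higher values, in 6 of 6 cases for rods (median 0.24) and 4 of 4 for astrocytes (0.21). For cones it was 4 of 5 (0.15), for horizontal cells 3 of 4 (0.18) and for bipolar cells 4 of 6 (0.09). Fibroblast and connective tissue markers were higher in 3 of 4 cases (0.71). Their summed level was low, at 8.81 and 13.0 CPM in wild type against 24.9 (TP-1036) and 15.8 (TP-1040). Pigment epithelium markers were higher in 3 of 7 cases (-0.18), but the transgenic-labelled libraries disagreed. Against the wild-type mean, their median was 0.56 for TP-1036 and -0.79 for TP-1040. The summed level was 30.7 and 55.7 CPM in wild type against 81.7 (TP-1036) and 45.5 (TP-1040). Over all rows, 50.2% were higher. The part of these cell types in the members' differences was not tested.

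Transcript length moved with the differences too, mostly in TP-1036. Over all rows, TP-1036 minus TP-1040 (log2) was lower the greater the length of the longest transcript (Spearman correlation -0.454 across genes, which share the same libraries and are not independent), against 0.136 for P1033 minus P1041. Members have long transcripts, with a median of 5095 bases against 3472 over all rows. Of the 32 members at or above their own median length, 25 were lower in TP-1036 than in TP-1040, with a median log2 difference of -0.23. Of the 31 shorter ones 13 were lower, with a median of 0.05. Dcc, with a transcript of 10323 bases, lay lowest, and Slit2 (9960 bases) and most plexins also lay below 0. Ephb2 has one of the longest transcripts, of 10902 bases, and differed by only -0.01 between these libraries.

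**Figure D4:**
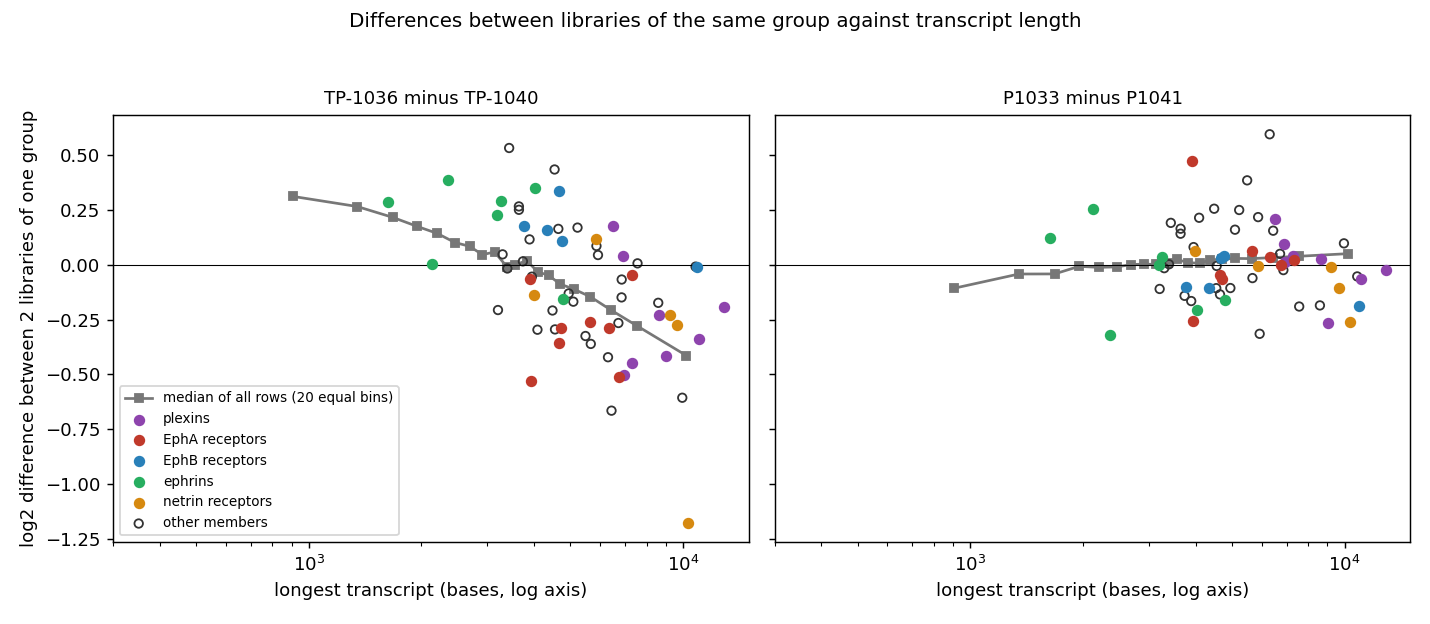
Log2 difference between the transgenic-labelled libraries (left) and between the wild-type libraries (right) against the longest transcript of each gene (bases, log axis), with members as points and the median of all rows in 20 equal bins as grey squares. On the left the grey line falls with length and Dcc is the lowest member, and on the right the line stays near 0.

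With a length trend removed from each library, all 9 members named above stayed under an unadjusted p of 0.05, and 7 more joined them. The total was 16 of 63 (25.4%), 12 higher and 4 lower, where the background under that correction was 12.2% of all rows (6.77% higher and 5.48% lower), and 0 members passed the adjusted threshold in edgeR. The 7 were Ephb2, Robo4, Sema5b, Plxnb1 and Plxna4 with higher values and Epha10 and Sema4g with lower values. Plxnd1 moved from 0.46 to 0.59, Ephb2 from 0.23 to 0.50 and Plxna4 from 0.06 to 0.36. Unc5d moved from -0.52 to -0.32, Dcc from -0.69 to -0.51 and Plxna2 from -0.27 to -0.03. Ntn4 (0.60) and Epha6 (-0.75) hardly moved. The 4 EphB genes with higher values kept them (0.26 to 0.50). Epha10, Epha8 and Epha7 stayed below 0 (-0.32, -0.21 and -0.20), while Epha5 moved to 0.19, the highest EphA value.

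Among the alternatives run, members passed the adjusted threshold only when TP-1040 was left out, so that TP-1036 stood alone against both wild-type libraries. Then 21 of 63 members passed the adjusted threshold in edgeR (33.3%), 8 higher and 13 lower, beside 28.7% of all rows (12.9% higher and 15.7% lower). They included all 9 named above, and Dcc, Plxna1, Plxna2, Epha7 and Slit2 with lower values. A single library carries this setting, and without TP-1036, P1041 or P1033 the number was 0, where 0.254%, 0.144% and 0.549% of all rows were called.

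Other genes of axon guidance were also close to balance, and 11 of 94 (11.7%) were at an unadjusted p of 0.05, where the background was 9.91% of all rows (5.26% higher and 4.65% lower). The list of 40 further cues, receptors and adhesion molecules had 5 higher and 2 lower at that p (17.5% in all), with a median of -0.03. The list of 54 downstream signalling genes had 1 higher and 3 lower (7.41% in all), with a median of -0.02. None of the 94 passed the adjusted threshold in edgeR. Smo, the transducer of hedgehog signals, had 19.1 and 21.4 CPM in wild type against 33.1 and 27.8 in transgenic-labelled retinas (log2 difference 0.59 ± 0.14). Shh, a hedgehog ligand that ganglion cells secrete, had 4.41 and 4.82 against 2.81 and 2.98 CPM (-0.67 ± 0.21). The groups of both genes lay apart (as in 48.4% of all rows), in opposite directions. That they lay apart largely follows from picking these genes by their p. Cxcr4, the receptor of Cxcl12, was at 1.08 and 0.929 against 2.17 and 2.29 CPM (1.16 ± 0.28), and Rgma, a ligand of neogenin, at 12.9 and 14.4 against 19.98 and 18.10 CPM (0.47 ± 0.14). Srgap1, which acts downstream of Robo receptors, had 35.2 and 24.8 against 17.6 and 21.5 CPM (-0.62 ± 0.20), and Mical2, a cytoskeletal oxidoreductase of the MICAL family, whose members act downstream of plexins, had 15.2 and 14.1 against 9.14 and 11.3 CPM (-0.52 ± 0.16). The adjusted p of these 6 in edgeR lay between 0.477 and 0.495.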

How the data were processed

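RNA was measured in 4 retina libraries made with an Illumina TruSeq kit, per the labels' protocols. Bowtie 0.12.2 and the builds mm8 and mm9 are listed, per the submitters' processing notes, with no role for either build. The read counter, its annotation and strand setting remain not given in the sources used here. Per gene, the authors deposited estimated counts per gene, of which 80.3% to 82.4% were whole numbers. They were rounded, and 4 further columns of per-library values were not used. Column names gave only the group, and the 2 libraries of a group differed beyond sampling noise (chi-square 11.0 and 59.7 times its degrees of freedom). The labels do not say whether they were separate animals, and p-values reflect only how these libraries vary, which may be technical.

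Every row was tested with edgeR 4.0.16 (limma 3.58.1, R 4.3.3), with TMM scaling, quasi-likelihood fits, a two-sided test and Benjamini-Hochberg adjustment over 14572 rows. The table's smallest total over the libraries was 76.9 reads, so all 63 members were tested with no further filter. Standard errors are the log2 difference over the root of F. FPKM is CPM divided by the longest GENCODE M21 transcript in kilobases, and 167 rows without a match took the median. For the length correction, each gene's log2 CPM was first set against its mean over the 4 libraries. A smooth trend of these deviations on log2 length was then fitted per library and entered as an offset. DESeq2 1.42.0, limma-voom, other scalings and filters, and leaving out each library were alternatives. Scripts were tested on simulated data.

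Members, lists and tests were chosen with earlier results of these data known. Values per library are given for members at an unadjusted p of 0.05 and for the highest and the most different member of each role. Other members whose library values are given were picked after these had been seen. Other guidance genes are the 6 with the smallest p, and markers come from the first 4 of their list. Plscr1 and Lyz2 are named as the transgene's symbol and as the gene called over all rows.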

Additional observations from a re-analysis of the deposited data

How the results depend on the processing

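The number of genes called over all rows was 1 with edgeR, 87 with DESeq2, and 0 with column totals, a mean CPM of at least 5, a mean FPKM of at least 1 or the length correction, and it ran from 21 to 4177 when a library was left out. Members called were 0 in every setting but for 21 without TP-1040 (0 to 21 over the left-out libraries), and the 94 other guidance genes gave 0 to 28. Members at an unadjusted p of 0.05 with higher values numbered 7, or 12 with the length correction and 0 to 10 with a library left out. Those with lower values numbered 2, or 5 with column totals, 4 with DESeq2 and with the length correction, 1 at a mean CPM of at least 5 or a mean FPKM of at least 1, and 1 to 18 with a library left out. Members whose groups did not overlap numbered 17 higher (19 to 30 with a library left out) and 21 lower (25 to 33). With a library left out, 1 library stands against 2, so overlap is less likely for any gene. The share over all rows was not computed there, so the rise is no result about the members. Other guidance genes at that p numbered 6 higher, 11 with the length correction and 2 to 17 with a library left out, and 5 lower, 0 to 26. The members' median of -0.04 moved by less than the spread between the transgenic-labelled libraries, and was 0.04 without TP-1036 and 0.01 with the length correction. Of the 22 members chosen by rule, 20 kept their sign throughout. Epha4 turned to -0.025 with column totals and ran from -0.13 to 0.15 with a library left out, and Slit2 turned to 0.068 with the length correction and ran from -0.46 to 0.15. The cause of these shifts was not tested. No paired analysis was possible because the columns carry no replicate number. A left-out library leaves a lone sample, which is assumed to vary like the other group.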
